A study of Mus musculus with 8 samples.

Results

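The genes described are 10 members of the NRF2 antioxidant response, the transcription factor gene Nfe2l2, its repressor gene Keap1 and 8 target genes, out of 19505 genes named on the array. They were chosen by gene symbol, and each of the 10 was measured by a single probe set. Total kidney RNA came from NZBWF1 mice, the hybrid of New Zealand Black and New Zealand White mice, which develops a lupus-like disease with nephritis with age. One group was 4 mice at 8 weeks of age (replicates 1 to 4) and the other 4 mice at 28 weeks (replicates 6 to 9). All 8 mice were of this strain, no agent or engineered allele is named in the labels, and no other strain served as a control, so age and disease course cannot be told apart. Each kidney was read on 1 Clariom S Mouse array, a 1-colour expression array. Each value is a log2 intensity as summarised by RMA (robust multi-array averaging), on which a difference of 1 is a 2-fold change. With 4 arrays per age, the array number sets the precision.

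Under resting conditions the protein KEAP1 binds the transcription factor NRF2, the product of Nfe2l2, and directs it to degradation. Oxidants and electrophiles modify cysteines of KEAP1, NRF2 then accumulates in the nucleus, pairs with a small MAF protein and binds antioxidant response elements near its target genes. The targets make and use glutathione, reduce thioredoxin and quinones, and break down heme. In the kidney this response is known for limiting injury of the tubule by oxidants. Much of the control acts on the NRF2 protein, which an mRNA array does not measure.

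The promoters are shown because the element that NRF2 reads is the feature that defines the target genes. RefSeq promoters of build GRCm38.p6, from 250 bases before to 50 bases after a transcription start, were searched on both strands for the core of the element, TGACNNNGC. The table held 9 promoters for 7 of the 10 members, all but Hmox1, Gclc and Gsta4. The core was found in 4 of these 9 promoters, 1 each of Nfe2l2, Gclm, Txnrd1 and Srxn1, and in 12.4% of all 32851 promoters of this length. Txnrd1 had 3 promoters in the table and each of the other genes 1. The Srxn1 match lies after the transcription start and is not printed. With the looser core TGANNNNGC the number was 6 of 9, now with Keap1 and a further Txnrd1 promoter, against 41.3% of all promoters. The windows of Nqo1 and Gsta2 held neither form, which says only that these letters are absent there. One looser Srxn1 match overlaps the AP-1 motif TGANTCA, which 7.81% of all promoters held. The sequences below run 5′ to 3′ on the strand of the gene, with the match in capitals. The Nfe2l2 match begins 240 bases before the start (chr2:75704875-75704913, minus strand). The Gclm match begins 134 bases before it (chr3:122245403-122245451, plus strand) and reads on the opposite strand. The Txnrd1 match begins 92 bases before 1 of its 3 listed starts (chr10:82859094-82859142, plus strand), also on the opposite strand. The looser Srxn1 match that overlaps the AP-1 motif begins 45 bases before the start (chr2:152105459-152105507, plus strand). Other looser matches in Srxn1 begin 158 and 57 bases before the start and are not printed. A match of letters is a description and not a binding site.
Nfe2l2: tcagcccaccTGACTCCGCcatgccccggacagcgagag
Gclm: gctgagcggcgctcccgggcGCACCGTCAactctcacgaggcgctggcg
Txnrd1: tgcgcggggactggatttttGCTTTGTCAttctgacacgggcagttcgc
Srxn1: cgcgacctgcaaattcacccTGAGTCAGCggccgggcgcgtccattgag

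None of the 10 members passed the threshold between the ages, a limma p under 0.05 after Benjamini-Hochberg adjustment across the 22206 probes. Of all probes 0.968% passed. At an unadjusted p under 0.05 there were 4 members, Gsta2, Hmox1, Nqo1 and Txnrd1, where 15.0% of all probes lay under that value. The dimmest member lay at percentile 55.8 of all probes by mean value, so shares over all probes include many dimmer ones. In a fit without the dimmest 50% of probes 3.59% passed the adjusted threshold, Gsta2 among them. The mean was higher at 28 weeks in 9 of the 10 members and lower in Gclc, where 48.4% of all probes had a positive difference. The median log2 difference of the members was 0.34, beside -0.01 over all probes. Hmox1 alone had a difference of at least 2-fold, which 3.17% of all probes reached. Gsta2 alone had groups that did not overlap, which was seen in 8.71% of all probes. In the other 9 members the values of the ages overlapped, as the plot of values by array shows.

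**Figure D1:**
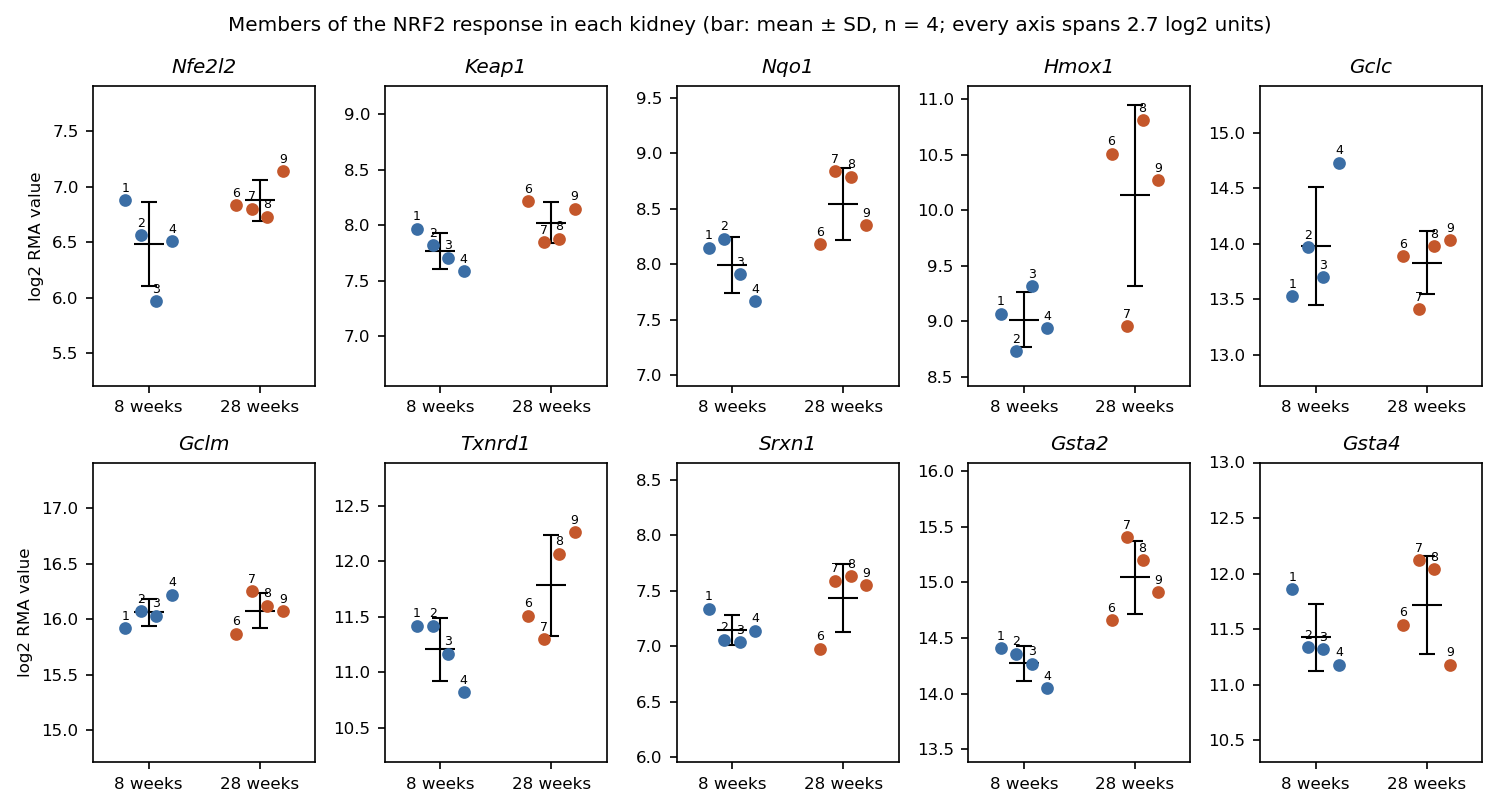
Log2 RMA value (vertical axis, each spanning 2.7 log2 units) of each of the 10 members in the 4 kidneys at 8 weeks (blue) and the 4 at 28 weeks (orange). Small numbers are replicates and black bars are mean ± SD. Only in Gsta2 do all 28-week points lie above all 8-week points, and in Hmox1 replicate 7 lies among the 8-week points.

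The arrays were not alike within an age. Both groups carried a kidney profile, with the uromodulin gene Umod of the thick ascending limb at 18.37 ± 0.10 at 8 weeks and 18.60 ± 0.12 at 28 weeks (SD, n = 4 each), and the endocytic receptor gene Lrp2 of the proximal tubule at 18.13 ± 0.12 and 18.04 ± 0.23. Of 22 measured macrophage and monocyte markers 21 had a higher mean at 28 weeks, by a median log2 difference of 2.17. None passed the threshold in limma, 19 had an unadjusted p under 0.05, where 15.0% of all probes did, and 19 passed without 28-week replicate 7, where 5.57% of all probes passed. Their mean value relative to the 8-week mean lay between -0.24 and 0.29 in the 8-week kidneys, between 2.50 and 3.09 in 28-week replicates 6, 8 and 9, and at 0.12 in 28-week replicate 7. The brightest 2 of them, Spi1 and Csf1r, differed in replicate 7. Spi1 was 9.19 there, inside the 8-week range of 8.58 to 10.2, and 12.78 to 13.74 in the other 28-week mice. Csf1r was 11.05 there, above the 8-week maximum of 10.7, and its groups did not overlap. Tubular injury markers (19 measured, 3 of them past the threshold and higher) gave -0.13 to 0.16 at 8 weeks, 1.59 to 2.13 in replicates 6, 8 and 9 and 0.27 in replicate 7. The brightest 2, Clu and Havcr1, had overlapping groups and log2 differences of 0.50 and 0.80 (limma adjusted p = 0.606 and 0.655). Clu was lowest of all arrays in 28-week replicate 6, at 16.17, and Havcr1 in 28-week replicate 7, at 13.62. The 22 proximal tubule markers all had a lower mean at 28 weeks, by a median of -0.39, with 1 past the threshold. Kap, with Lrp2 the brightest 2 of them, was 19.36 ± 0.07 at 8 weeks and 19.12 ± 0.11 at 28 weeks. Its groups did not overlap and it did not pass. Of 15 distal tubule and collecting duct markers 5 had a higher and 10 a lower mean, 1 passed and was lower, and the median was -0.46. The log2 differences ran from -2.71 for Calb1 to 0.99 for Slc12a1, the salt cotransporter gene of the thick ascending limb. Slc12a1 did not pass, and its groups did not overlap. In whole kidney RNA a change in the number of cells of a type and a change of RNA per cell cannot be told apart. The part of these shifts in the members' values was not tested.

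Nfe2l2, which encodes NRF2 itself, had values of 6.88, 6.56, 5.97 and 6.51 at 8 weeks and of 6.83, 6.80, 6.73 and 7.14 at 28 weeks. The groups overlapped, because the 8-week replicate 1 was higher than 3 of the 28-week mice, and the lowest value of all was that of 8-week replicate 3. The log2 difference was 0.40 (95% interval -0.05 to 0.84, limma adjusted p = 0.397), and without 8-week replicate 3 it was 0.22. Keap1, the adaptor of the ubiquitin ligase that removes NRF2, had values of 7.97, 7.82, 7.71 and 7.59 at 8 weeks and of 8.22, 7.85, 7.88 and 8.15 at 28 weeks. Replicates 6 and 9 at 28 weeks lay above every 8-week mouse, and replicates 7 and 8 lay inside the 8-week range. Its log2 difference was 0.25 (95% interval -0.08 to 0.59, adjusted p = 0.499). The genes with the profile most like that of Nfe2l2 over the 8 arrays were Ythdf1, Syn3 and Fkbp1a, by a measure given with Hmox1 (0.111, 0.182 and 0.2). For both genes the interval reaches from a slight fall to a rise of 1.79-fold for Nfe2l2 and 1.5-fold for Keap1.

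Hmox1, which encodes heme oxygenase 1, the inducible enzyme that opens the heme ring and a gene of both stressed tubule cells and macrophages, had the largest difference among the members. Its values were 9.07, 8.73, 9.32 and 8.94 at 8 weeks and 10.51, 8.96, 10.81 and 10.27 in 28-week replicates 6, 7, 8 and 9. The other 3 mice at 28 weeks stood clearly above all 8-week mice, while 28-week replicate 7 lay inside the 8-week range. The means were 9.02 ± 0.25 and 10.14 ± 0.82 (SD, n = 4 each), a 2.18-fold difference (95% interval 1.27 to 3.72, adjusted p = 0.152). Without 28-week replicate 7 the difference was 2.86-fold and passed the threshold (adjusted p = 0.00214), in a fit in which 5.57% of all probes passed, against 0.968% with it. Without any other single array it did not pass, with adjusted p from 0.202 to 0.345, and without 28-week replicate 8 the difference was 1.86-fold. In 28-week replicate 7 the means of the macrophage and injury marker lists were also close to the 8-week level, as given above. Single markers could differ, with Csf1r above and Havcr1 below every 8-week mouse in that kidney. The gene with the most similar profile over the 8 arrays was Vim, the intermediate filament gene of mesenchymal, blood and injured tubule cells, followed by the proliferation genes Kif2c and Mki67. Likeness was measured as the mean absolute difference between profiles scaled to mean 0 and SD 1, which was 0.134, 0.141 and 0.141 for these genes and had a median of 1.12 over the 19504 other genes. Vim stood at 8.86 in 28-week replicate 7, and at 11.39, 11.74 and 11.09 in the other 28-week mice.

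Gsta2, an alpha-class glutathione S-transferase that couples glutathione to electrophiles, was the only member whose groups were apart. It was 14.41, 14.36, 14.27 and 14.05 at 8 weeks and 14.66, 15.41, 15.20 and 14.91 at 28 weeks. The lowest 28-week value, in replicate 6, exceeded the highest 8-week value, and the highest value of all was in replicate 7. The mean was 14.27 ± 0.16 at 8 weeks and 15.04 ± 0.33 at 28 weeks, a difference of 1.71-fold (95% interval 1.29 to 2.26) that did not pass (adjusted p = 0.0809). It passed in 3 alternative fits. They were the fit without the dimmest 50% of probes (adjusted p = 0.0496, with 3.59% of probes called), the fit with trend and robust variance (adjusted p = 0.0376, 1.8% called) and the fit with array weights (adjusted p = 0.0327, 3.93% called). In each of the 8 fits without 1 array it did not pass, with adjusted p from 0.0725 to 0.22.

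The probe set is named for Gsta2 alone, but Gsta2 has close paralogs beside it on chromosome 9. Whether the probes also read those paralogs was not tested, so the value may not belong to a single gene. The gene with the most similar profile was Gm10639, a predicted protein-coding gene that RefSeq places between Gsta1 and Gsta2 on that chromosome (mean absolute difference 0.166). Gm10639 was 10.94, 10.71, 10.76 and 10.41 at 8 weeks and 11.27, 11.91, 11.63 and 11.54 at 28 weeks, with a log2 difference of 0.88 (adjusted p = 0.0514). The order of its 28-week values was that of Gsta2, with replicate 7 highest and replicate 6 lowest. The genes next in likeness to Gsta2 were Zfp114 and Apob, each at 0.206.

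Gsta4, the alpha-class transferase with high activity towards the lipid peroxidation product 4-hydroxynonenal, was 11.86, 11.34, 11.32 and 11.18 at 8 weeks and 11.54, 12.12, 12.04 and 11.18 at 28 weeks. Replicates 7 and 8 at 28 weeks were above every 8-week mouse, and replicate 9 was level with the lowest of them. The ages differed by 0.30 (95% interval -0.23 to 0.82, adjusted p = 0.637). It moved between 0.16 without 28-week replicate 7 and 0.48 without 28-week replicate 9, was 0.19 without 28-week replicate 8, and did not pass without any single array. Gsta3, an alpha-class gene outside the 10 that was chosen after its values were seen, had a log2 difference of -0.14 (adjusted p = 0.901).

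Nqo1, a quinone reductase whose mRNA is a widely used readout of NRF2 activity, was 8.15, 8.23, 7.91 and 7.67 at 8 weeks and 8.18, 8.84, 8.79 and 8.35 at 28 weeks. Replicates 7, 8 and 9 at 28 weeks were above all 8-week mice, and replicate 6 was below 8-week replicate 2. The log2 difference was 0.55 (95% interval 0.11 to 0.99, 1.46-fold, adjusted p = 0.211). Among the 45 pairs of members, Nqo1 and Gsta2 had the most similar profiles, at a mean absolute difference of 0.238. Of the 19504 other genes, Apob, Pde3b and Aars2 were nearest to Nqo1, at 0.187, 0.205 and 0.217, and Gsta2 came next. Gsta2 with Gsta4 (0.446) and Nqo1 with Gsta4 (0.466) were the next pairs.

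Txnrd1, the cytosolic thioredoxin reductase, was 11.42, 11.42, 11.17 and 10.82 at 8 weeks and 11.51, 11.30, 12.07 and 12.26 at 28 weeks. Replicates 8 and 9 at 28 weeks stood highest, and replicate 7 lay inside the 8-week range. The mean log2 difference was 0.58 (95% interval 0.05 to 1.10, 1.49-fold, adjusted p = 0.282). Srxn1, the sulfiredoxin that repairs over-oxidized peroxiredoxins, was 7.34, 7.06, 7.04 and 7.14 at 8 weeks and 6.98, 7.59, 7.63 and 7.55 at 28 weeks. Replicates 7, 8 and 9 lay close together above all 8-week mice, while replicate 6 was the lowest of all 8. Its log2 difference was 0.29 (95% interval -0.10 to 0.68, adjusted p = 0.498), and without 28-week replicate 6 it was 0.44.

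The 2 subunits of glutamate-cysteine ligase, the rate-limiting enzyme of glutathione synthesis, had the smallest differences of the 10. The catalytic subunit gene Gclc was 13.53, 13.97, 13.70 and 14.73 at 8 weeks and 13.89, 13.41, 13.98 and 14.03 at 28 weeks. Replicate 4 of the 8-week mice was the highest of all and 28-week replicate 7 the lowest, and the remaining values overlapped. The 28-week mean differed by -0.16 (95% interval -0.73 to 0.42, adjusted p = 0.859), and without 8-week replicate 4 it was 0.09. The modifier subunit gene Gclm was 15.92, 16.07, 16.03 and 16.22 at 8 weeks and 15.87, 16.25, 16.12 and 16.07 at 28 weeks. All 8 values lay within a narrow range and the groups overlapped. The log2 difference was 0.02 (95% interval -0.29 to 0.33, adjusted p = 0.977), and its sign turned to negative when arrays were centred on their medians or on reference genes. The interval for Gclm covers changes from 0.816-fold to 1.26-fold, the narrowest of the members, and that for Gclc covers 0.602-fold to 1.34-fold.

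**Figure D2:**
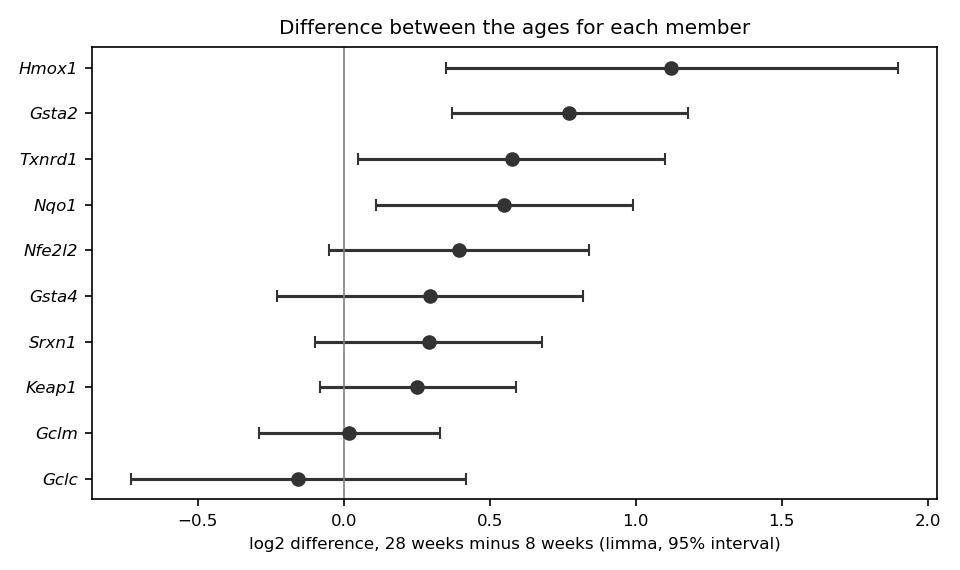
Log2 difference between the means of the 28-week and 8-week kidneys for each member (horizontal axis, log2 units), with the 95% interval from limma, n = 4 per age. The intervals of Hmox1, Gsta2, Txnrd1 and Nqo1 lie above 0 before adjustment over all probes, and those of the other 6 include 0.

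The members did not move as one across the 28-week mice. Relative to the 8-week mean, replicate 7 was the highest of the 8 arrays for 4 members (Nqo1, Gclm, Gsta2 and Gsta4) and the lowest of the 28-week arrays for 4 others (Keap1, Hmox1, Gclc and Txnrd1). In that kidney Gsta2 was 2.20-fold, Nqo1 1.80-fold and Gsta4 1.62-fold above the 8-week mean, while Hmox1 was at 0.963-fold. Replicate 6 showed another order, with Hmox1 1.49 log2 units above the 8-week mean, Nqo1 0.19 above and Srxn1 0.16 below. Replicates 8 and 9 each had 9 of 10 members above the 8-week mean, with a median deviation of 0.55 and 0.40. The median deviation was 0.24 in replicate 6 and 0.26 in replicate 7. At 8 weeks, replicate 1 was the highest of its group for 6 of the 10 members, in Txnrd1 level with replicate 2, and replicate 4 the lowest for 5. These are single arrays, so the differences between mice of one age have no replicate check.

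**Figure D3:**
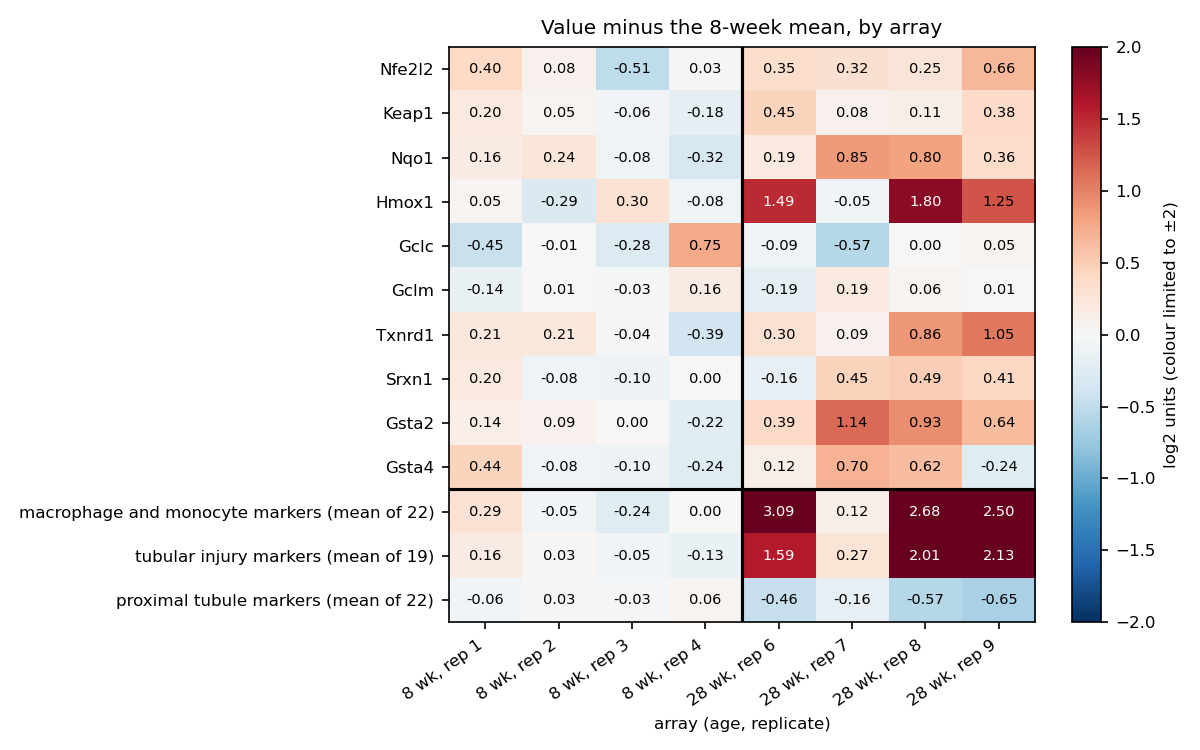
Value minus the 8-week mean (colour and printed number, log2 units) for the 10 members and for the mean of 3 marker lists, in rows, in each of the 8 kidneys, in columns. In 28-week replicate 7 Gsta2 is at 1.14 and Nqo1 at 0.85 while Hmox1 is at -0.05 and the macrophage markers at 0.12.

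Beyond the 10 members, 9 lists of genes of the pathway and its surroundings held 201 measured genes, the members included. Of these 201 genes 2 passed the threshold and were higher at 28 weeks, Msrb3 and Flvcr1, where 0.446% of all probes did so. A further 3 passed and were lower, Gstt2, Blvra and Dpep1, where 0.522% of all probes passed and were lower. The 5 together are 2.49% of the genes. Without 28-week replicate 7 the number was 22, in the fit in which 5.57% of all probes passed. It was 0 to 2 without any other single array, where 25 to 94 of all probes passed, against 215 with all arrays. Only Gstt2 and Msrb3 passed in any of those fits, and Flvcr1, Blvra and Dpep1 passed in none of them. The median log2 difference over the 201 genes was -0.02, and 93 of them had a positive difference. The counts at an unadjusted p under 0.05 given for the lists stand beside 15.0% of all probes.

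Among 23 regulators and partners of NRF2 none passed in limma and 2 had an unadjusted p under 0.05. Of these 23, 12 had a higher and 11 a lower mean, and all differences lay between -0.38 and 0.45. The 2 with the smallest p were Nfe2l1, a related transcription factor gene, with a log2 difference of 0.45 (adjusted p = 0.29), and Gsk3b, a kinase that marks NRF2 for degradation by another route, with 0.39 (adjusted p = 0.305). The regulator list had a median difference of 0.03, beside -0.01 over all probes.

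Among 26 genes of glutathione synthesis, uptake and recycling the median difference was -0.13, with 9 higher and 17 lower means. Dpep1, a brush border dipeptidase that takes part in glutathione breakdown, fell from 13.54 ± 0.23 to 12.57 ± 0.29 (1.96-fold lower, adjusted p = 0.044). Its 8-week values spanned 13.27 to 13.75 and its 28-week values 12.24 to 12.91, without overlap. Among 27 glutathione transferases the median was 0.10. Gstt2, a theta-class transferase, fell from 15.12 ± 0.34 to 13.74 ± 0.19 (2.60-fold lower, adjusted p = 0.017), with 28-week replicate 7 at 13.99 and the other 3 between 13.54 and 13.75. Gsta2, in the same list, had a higher mean that did not pass.

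Among 26 genes of the thioredoxin, peroxiredoxin and glutaredoxin systems the median was -0.03. Msrb3, a methionine sulfoxide reductase, rose from 8.66 ± 0.03 to 9.82 ± 0.31 (2.23-fold, adjusted p = 0.0218), and all 28-week values, from 9.56 to 10.27, were above the 8-week maximum of 8.71. In the 31 quinone and xenobiotic detoxification genes none passed, 14 had an unadjusted p under 0.05, and the median was -0.03. Those with the smallest p were Aldh3a2, a fatty aldehyde dehydrogenase, at -0.89 (adjusted p = 0.0587), and Abcb6, a mitochondrial porphyrin transporter, at -0.88 (adjusted p = 0.0776). In the 15 NADPH supply genes none passed and 7 had an unadjusted p under 0.05, with a median of -0.14. The mitochondrial isocitrate dehydrogenase gene Idh2 was at -0.83 (adjusted p = 0.105) and the folate enzyme gene Mthfd2 at 0.78 (adjusted p = 0.125).

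Heme and iron handling, the list that holds Hmox1, had changes in both directions among its 25 genes, with a median of 0.04. Flvcr1, a transporter known as a heme exporter, rose from 9.44 ± 0.31 to 10.5 ± 0.16 (2.10-fold, adjusted p = 0.0309). Its values at 28 weeks were 10.45, 10.33, 10.71 and 10.53, so replicate 7 was with the other 28-week mice, unlike in Hmox1. Blvra, the biliverdin reductase that acts on the product of heme oxygenase, fell from 11.67 ± 0.17 to 10.6 ± 0.34 (2.11-fold lower, adjusted p = 0.0367), with 28-week values of 10.24, 11.05, 10.63 and 10.46. Of 10 red blood cell genes 4 were measured, and none passed or had an unadjusted p under 0.05. Their mean value relative to the 8-week mean lay between -0.16 and 0.13 at 8 weeks and between -0.15 and 0.31 at 28 weeks. The brightest of the 4, Slc4a1, is also in the distal tubule and collecting duct list. The next, Alas2, was 4.58 at 8 weeks and 4.63 at 28 weeks, below the array medians of 5.98 to 6.14. These genes therefore say little about blood content.

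Of 8 genes of superoxide and peroxide removal none passed and 2 had an unadjusted p under 0.05. The extracellular superoxide dismutase gene Sod3 was at -0.46 (adjusted p = 0.14) and the metallothionein gene Mt2 at 1.55 (adjusted p = 0.302), with a median of -0.18. Mt2 was 13.74, 12.57, 15.36 and 15.62 in 28-week replicates 6 to 9, against 11.9 to 13.88 at 8 weeks, so replicates 6 and 7 lay inside the 8-week range. Of 20 genes of NADPH oxidases and other oxidant sources none passed and 7 had an unadjusted p under 0.05, with a median of 0.04. In this list 12 genes had a higher and 8 a lower mean. They ran from Nox4 at -0.88 (limma adjusted p = 0.15) to Cybb at 3.08 (adjusted p = 0.0966). Cybb was 9.03 in 28-week replicate 7, inside the 8-week range of 8.44 to 9.33, and 12.58 to 13.28 in the other 28-week mice. The cytosolic subunit genes of the phagocyte oxidase, Ncf1 and Ncf4, were at 1.49 and 1.74 (adjusted p = 0.0776 and 0.0866). Ncf1 was 7.75, 5.94, 7.54 and 6.96 in 28-week replicates 6 to 9, against 5.27 to 5.78 at 8 weeks. Neutrophil markers had none of 11 past the threshold and 1 with an unadjusted p under 0.05. Their mean relative value was -0.12 to 0.17 at 8 weeks and 0.05 to 0.20 at 28 weeks, while the macrophage markers stood as given above. The brightest 2 neutrophil markers, Elane and S100a9, were at 5.06 and 4.87 at 28 weeks, below the array medians of 5.98 to 6.14. A flat value of these markers does not show that neutrophils were absent.

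**Figure D4:**
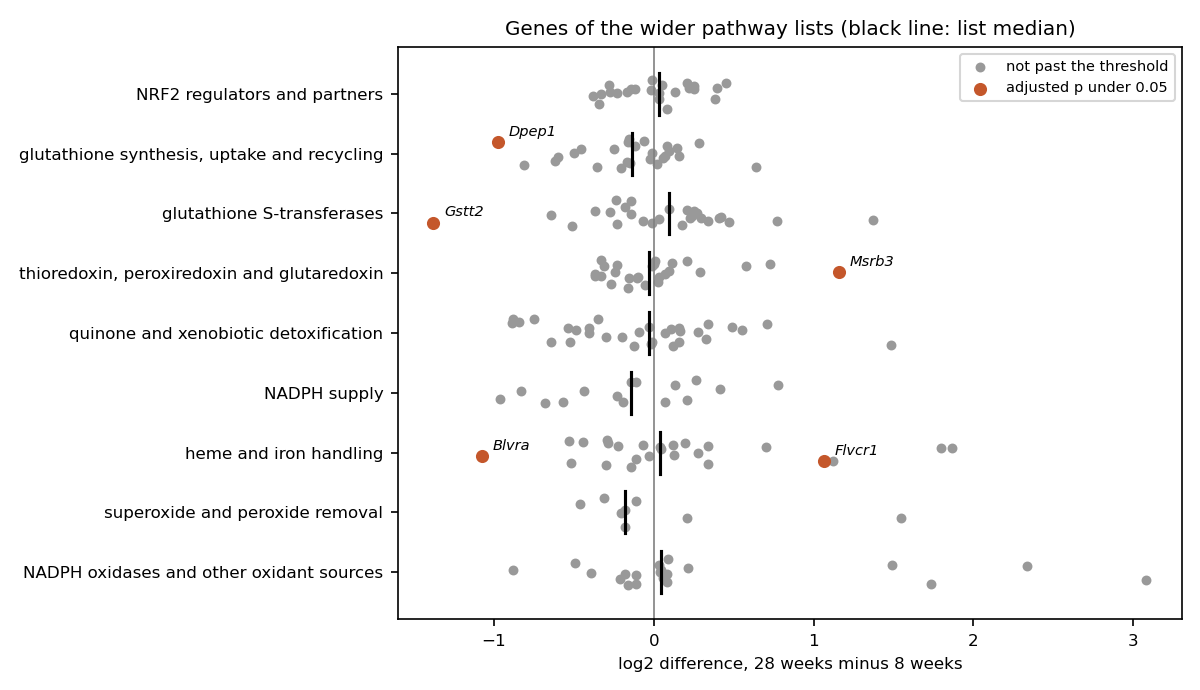
Log2 difference, 28 weeks minus 8 weeks (horizontal axis), of each measured gene in the 9 lists (rows), with list medians as black lines and genes past an adjusted p of 0.05 in orange. The medians lie between -0.18 and 0.10, and the 5 named genes are those that passed.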

How the data were processed

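The deposited values are log2 intensities, 1 column per array. The authors used RMA, per the submitters' processing notes. Its version was not found in the labels, and the log base was taken as 2 from the range of 2.31 to 19.89. RMA compresses folds of dim probes and gives no detection call. Trizol RNA was made into biotinylated cRNA, per the labels' protocols. Array medians lay between 5.98 and 6.14. The platform annotation gave 1 symbol to 19572 of 22206 probes, and the brightest probe stood for a gene with several. No 2 arrays were copies (at most 1.37% of probes with identical values), and no batch was named.

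All probes were fitted with limma 3.58.1 (lmFit and eBayes, R 4.3.3), 28 minus 8 weeks, with adjustment over all probes and no filter. On 5 simulated sets with 200 changed genes each, the fit recovered 2.4% of changes of 0.5, 56% of changes of 1 and 94.4% of changes of 2 on the log2 scale. The members and lists were chosen with earlier results of these data known. Apart from the members, the text names up to 4 genes past the threshold per list and direction, or the 2 of smallest p. Of marker lists it names the brightest 2 (Umod, Slc12a1, Lrp2, Kap, Spi1, Csf1r, Clu, Havcr1, Slc4a1, Alas2, Elane and S100a9). Calb1, Nox4 and Cybb are named as extremes of their lists. The 3 most similar profiles of Nfe2l2, Hmox1, Nqo1 and Gsta2 are also named.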

Additional observations from a re-analysis of the deposited data

Results flagged for a closer look

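Among 74 groups of 4 arrays of the named genes, 3 had 1 value far from the other 3, where chance gives about 1 in 20. Srxn1 was 6.98 in 28-week replicate 6, where the others of that age spanned 7.55 to 7.63. Blvra was 11.93 in 8-week replicate 1, against 11.57 to 11.61. Umod was 18.52 in the same mouse, against 18.31 to 18.34.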

How the results depend on the processing

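Over all probes 215 passed, and 25 to 1237 when single arrays were left out. The count was 399 without the dimmest 50% of probes, 399 with trend and robust variance, 873 with array weights, 1384 without both 8-week replicate 1 and 28-week replicate 7, and 18 and 689 at thresholds of 0.01 and 0.1. Centring on reference genes moved the median of all probes by -0.10 and gave 91 higher and 194 lower calls, against 99 and 116. No member passed in the fit reported, and 0 to 1 when single arrays were left out. It was 1 (Gsta2) without the dimmest 50%, with trend and robust variance, with array weights and at 0.1, and 1 (Hmox1) without both arrays. Of the pathway genes 5 passed, 0 to 22 when single arrays were left out, 8 with reference centring, 10 without the dimmest 50%, 10 with trend and robust variance, 19 with array weights, 21 without both arrays, 0 at 0.01 and 16 at 0.1. The cause of these changes was not tested. Some of these fits used fewer probes or arrays. Of the members, 8 kept their sign in all 17 alternatives. Gclc turned to 0.094 without 8-week replicate 4 and lay between -0.31 and 0.094 when single arrays were left out. Gclm turned to -0.044 with median centring, -0.081 with reference centring, -0.031 with array weights and -0.087 without both arrays, and lay between -0.04 and 0.087 when single arrays were left out. No paired analysis was possible because the ages share no replicate numbers. With 4 arrays per age, the fit recovered 2.4% of changes of 0.5 log2 units put into test data, so such changes were mostly missed there. The test data shuffled the spread among probes and had independent noise. The percentage is therefore not a miss rate for the members themselves.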

Other observations

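Other genes of the lists were chosen after their values were seen. Akr1b8, an aldo-keto reductase, was 5.84, 6.09, 6.07 and 5.24 at 8 weeks and 7.35, 6.15, 7.76 and 7.92 in 28-week replicates 6 to 9 (log2 difference 1.48, limma adjusted p = 0.0882). Replicate 7 stood just above the 8-week maximum, as for Hpgds, the prostaglandin D synthase of blood cells, which was 6.02 in replicate 7 and 7.97, 7.31 and 7.41 in replicates 6, 8 and 9, against 5.71 to 6.01 at 8 weeks. The efflux transporter gene Abcc4 had 8-week values of 11.19 to 11.47 and 28-week values of 11.71, 12.05, 12.40 and 12.07, so replicate 7 was among the other 28-week mice (log2 difference 0.71, adjusted p = 0.0795). Slc7a11, the cystine transporter gene of glutathione synthesis, differed by 0.08 (adjusted p = 0.874), and the peroxiredoxin gene Prdx1 by -0.01 (adjusted p = 0.981).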
